A study of Mus musculus with 26 samples.

Results

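The Oogenesins are 4 mouse genes, Oog1, Oog2, Oog3 and Oog4, taken from a raw count table of 55401 Ensembl gene IDs by their GENCODE vM21 symbols. All 4 had a row in the table and passed the filter on low counts in every fit. The question here is how their transcripts stood in the egg and in the 1-cell embryo, and whether blocking c-Myc or RNA polymerase II went with other levels.

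Oogenesins belong to the PRAME family, proteins built of leucine-rich repeats, which in mouse has expanded into many copies expressed in germ cells and early embryos. Their messenger RNA is made in the growing oocyte and carried into the embryo, before the embryo has much transcription of its own. Mouse Oog1 protein is known to bind RalGDS, an activator of the small GTPase Ral, and to enter the nucleus between the late 1-cell and early 2-cell stages. PRAME-family proteins are also known as substrate receptors of Cullin-2 ubiquitin ligases.

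Cells were lysed directly and 26 RNA-seq libraries were made with a SMARTer kit for picogram inputs, which primes total RNA at random and amplifies it. Titles number the libraries in 2 separate series, so the controls of each treatment come from its own series. In the first series, 7 libraries came from 1-cell embryos treated with a thiazolidinone that blocks the pairing of c-Myc with its partner Max, and 7 from control embryos. The compound is called the c-Myc inhibitor in the text, and its full code name, which ends in F4, stands on the axes of the plots. In the second series, 4 libraries came from 1-cell embryos treated with the RNA polymerase II poison alpha-amanitin, 4 from control embryos and 4 from MII oocytes, which are unfertilised eggs arrested in the second meiosis. Embryos were B6D2F1 by B6D2F1 crosses made by in vitro fertilisation, with oocytes of superovulated 8-week-old B6D2F1 females, and the MII oocytes are labelled B6D2F1. Per the labels' protocols, the c-Myc inhibitor went into the medium 2 h after insemination and alpha-amanitin, at 100 µg/ml, 1 h after it, each for 10 h. The labels give every embryo an age of 10 h and every oocyte 0 h. The sources used here do not give the dose of the c-Myc inhibitor or the vehicle of the controls. How many embryos or oocytes entered a library is not stated outright, so n counts libraries and each SD or p-value measures the spread between libraries, part of which may be technical.

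Library totals ran from 20566278 to 27266040 counts in the first series. Those of the second ran from 5371602 to 31540627, where only alpha-amanitin replicate 3 lay under 15155120. The members had 732 to 34268 counts per library, for which counting error alone is 3.7% to 0.54%. All 8 oocyte markers (Gdf9, Bmp15, Zp1, Zp2, Zp3, Ooep, Nlrp5 and Mos) had counts in every group. Cumulus and granulosa markers summed to 4.94 to 74.1 CPM (counts scaled to library size) and sperm markers to 0.0466 to 22.3 CPM over all libraries. In every group Tnp1, Tnp2 and Smcp, of the sperm list, were at 0, as was Tnfaip6, of the cumulus list, in all groups but the MII oocytes. Prm1 and Spem1 of the sperm list and Amh of the cumulus list had counts in only 1 group each. Some other listed genes were at 0 in part of the groups. Prm2, of the sperm list, had counts in every group and alone made the sperm sum of MII oocytes, on average 10.9 CPM. Of the cumulus list, Has2 and Cyp19a1 had counts in every group, and Cyp19a1 had group means of 10.8 to 17.2 CPM.

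In the mouse genome (GRCm38, 1-based), Oog1 (ENSMUSG00000096576) is the only member on chromosome 12, at chr12:87602688-87608850 on the plus strand. The other members lie on chromosome 4. Oog4 (ENSMUSG00000047799) is at chr4:143437164-143450324 on the minus strand. Oog3 (ENSMUSG00000050810), at chr4:144157557-144162663 on the minus strand, starts 707.2 kb further on, with 30 annotated genes between them. Oog2 (ENSMUSG00000066030), at chr4:144190719-144196934 on the plus strand, follows after 28.1 kb with 0 genes between. No other annotated gene overlaps a member. Their coding sequences have 496, 476, 500 and 502 codons in the order Oog1 to Oog4, and 74.5% to 81.3% of aligned coding bases are identical between any pair.

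The upstream regions are as alike as the coding sequences, with 77.4% to 83.8% identity over the aligned parts of the last 250 bases. All 4 members matched a promoter entry, taken here from RefSeq (GRCm38.p6). The last 150 bases before each RefSeq start are shown because the shared stretches are what the family has in common outside the transcript. Capitals mark the 5 runs of at least 8 bases that all 4 genes hold in the same order, and each line reads 5′ to 3′ on the gene's own strand (Oog1, chr12:87602515-87602664; Oog2, chr4:144190567-144190716; Oog3, chr4:144162652-144162801; Oog4, chr4:143450325-143450474).
Oog1: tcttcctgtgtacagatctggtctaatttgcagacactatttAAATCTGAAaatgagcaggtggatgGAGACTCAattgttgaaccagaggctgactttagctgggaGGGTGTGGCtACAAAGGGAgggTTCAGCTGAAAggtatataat
Oog2: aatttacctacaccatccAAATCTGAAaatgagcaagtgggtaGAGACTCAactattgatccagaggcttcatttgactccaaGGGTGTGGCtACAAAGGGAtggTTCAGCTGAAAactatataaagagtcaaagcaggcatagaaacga
Oog3: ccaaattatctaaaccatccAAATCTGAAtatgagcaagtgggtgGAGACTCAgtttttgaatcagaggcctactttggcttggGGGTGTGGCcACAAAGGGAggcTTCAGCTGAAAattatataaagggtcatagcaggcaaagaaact
Oog4: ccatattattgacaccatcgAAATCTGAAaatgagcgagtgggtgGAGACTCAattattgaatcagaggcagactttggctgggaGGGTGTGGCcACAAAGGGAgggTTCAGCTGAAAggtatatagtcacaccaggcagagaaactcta

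The 11-base run TTCAGCTGAAA starts 21 bases before the RefSeq start of Oog1 and 45, 44 and 43 bases before those of Oog2, Oog3 and Oog4. Oog1's RefSeq start lies 23 bases upstream of its GENCODE start. The run was found in 13 of 27025 promoters (0.0481%) searched over the 250 bases upstream, and 4 of the 13 are the members. All 5 runs together were found in 6 promoters, the members and the PRAME-family genes Gm2042 and Gm13084. This search covered the gene's own strand only and did not ask for an order. The letters TATATA occurred in all 4 members, against 5.6% of all promoters, and TATAAA in Oog2 and Oog3 (13.0%). The general E-box CANNTG, where N is any base, occurred 2 to 4 times in each member (66.0% of promoters hold at least 1). One of these in each gene is the CAGCTG inside the 11-base run. The letters CACGTG, the E-box best known for Myc-Max, occurred in 0 of 4 members within this window (6.0% of promoters). In all other searches both strands were covered, and a match is a description of the letters, not of a binding site.

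**Figure D1:**
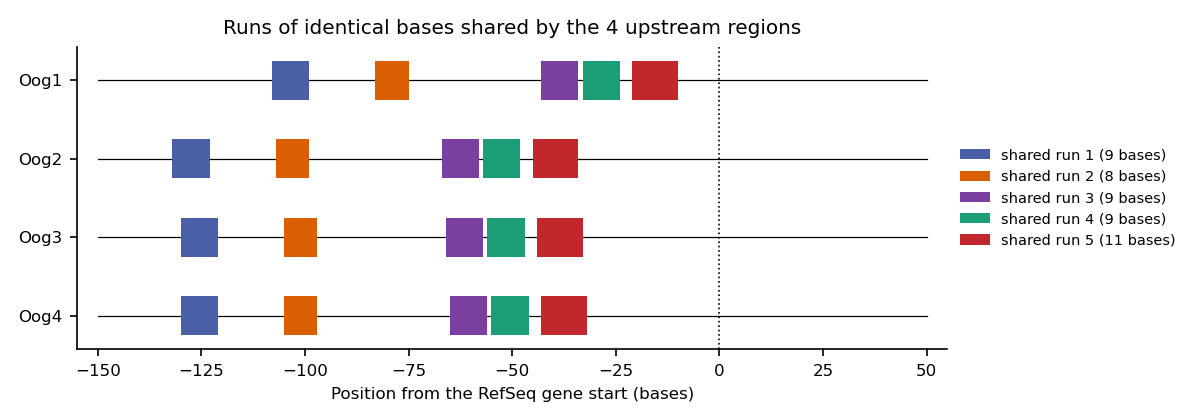
Position of the 5 shared runs of bases (coloured boxes, 8 to 11 bases long) upstream of each gene, in bases from its RefSeq start at 0 (dotted line). The order and spacing of the runs are alike in the 4 genes, and the Oog1 set sits closer to its RefSeq start, with the 11-base run at -21 against -45, -44 and -43.

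Sequence also sets how far each member's count can be trusted. Of the 50-base stretches of Oog1 transcripts, 88.96% also occur in transcripts of another gene, 85.83% in Gm2042 and 58.59% in Gm10436, both PRAME-family genes. For Oog2 the share was 33.37%, mostly with Gm13084, for Oog3 19.71%, mostly with Gm4350, and for Oog4 0.71%. Between members only 14 such stretches were shared, by Oog1 and Oog4. The sources used here name neither the counting program nor its treatment of reads that fit several genes, so Oog1 counts are uncertain and Oog4 counts are the least touched by copies.

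All 4 genes were abundant in the egg and the 1-cell embryo, and the ranges of their sum overlapped between the groups of each series. Across the series the sum was not tested. First-series controls stood at 0.864 of MII oocytes by the ratio of means, with 7 of 7 below the oocyte median. The family sum was 1219 ± 203 CPM in c-Myc-inhibited embryos and 1317 ± 46.6 CPM in their controls (SD, n = 7 each). It was 1523 ± 175 CPM in alpha-amanitin embryos, 1491 ± 178 CPM in their controls and 1524 ± 180 CPM in MII oocytes (SD, n = 4 each). These CPM use library totals scaled by the trimmed mean of M-values (TMM) over all 26 libraries. A share of library counts does not measure the amount of RNA per embryo, so fewer transcripts and a smaller part of the RNA cannot be told apart.

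Per library, the sum in alpha-amanitin embryos was 1765, 1526, 1358 and 1445 CPM, in their controls 1304, 1540, 1716 and 1403 CPM, and in MII oocytes 1611, 1433, 1728 and 1324 CPM. The 3 groups of the second series overlapped almost fully. In c-Myc-inhibited embryos the lowest, median and highest sums were 961, 1179 and 1494 CPM, against 1257, 1344 and 1363 CPM in controls. The treated libraries spread on both sides of the controls, with 4 of 7 below the lowest control and 2 of 7 above the highest. Treated replicates 1 to 4 had sums of 1419, 1324, 1494 and 1179 CPM. Replicates 5, 7 and 8 had 998, 1160 and 961 CPM. Over all genes, chi-square per gene between treated libraries was 38.29 to 47.46 within these sets and 53.02 to 70.4 across them. Pairs of control libraries gave 32.77 to 68.84. This grouping was seen after the fact, and its cause was not tested. As a share of all counts, the family held 0.120% ± 0.0200 in c-Myc-inhibited embryos and 0.130% ± 0.00598 in their controls, and 0.158% ± 0.0188 in alpha-amanitin embryos, 0.148% ± 0.0190 in their controls and 0.157% ± 0.0193 in MII oocytes.

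**Figure D2:**
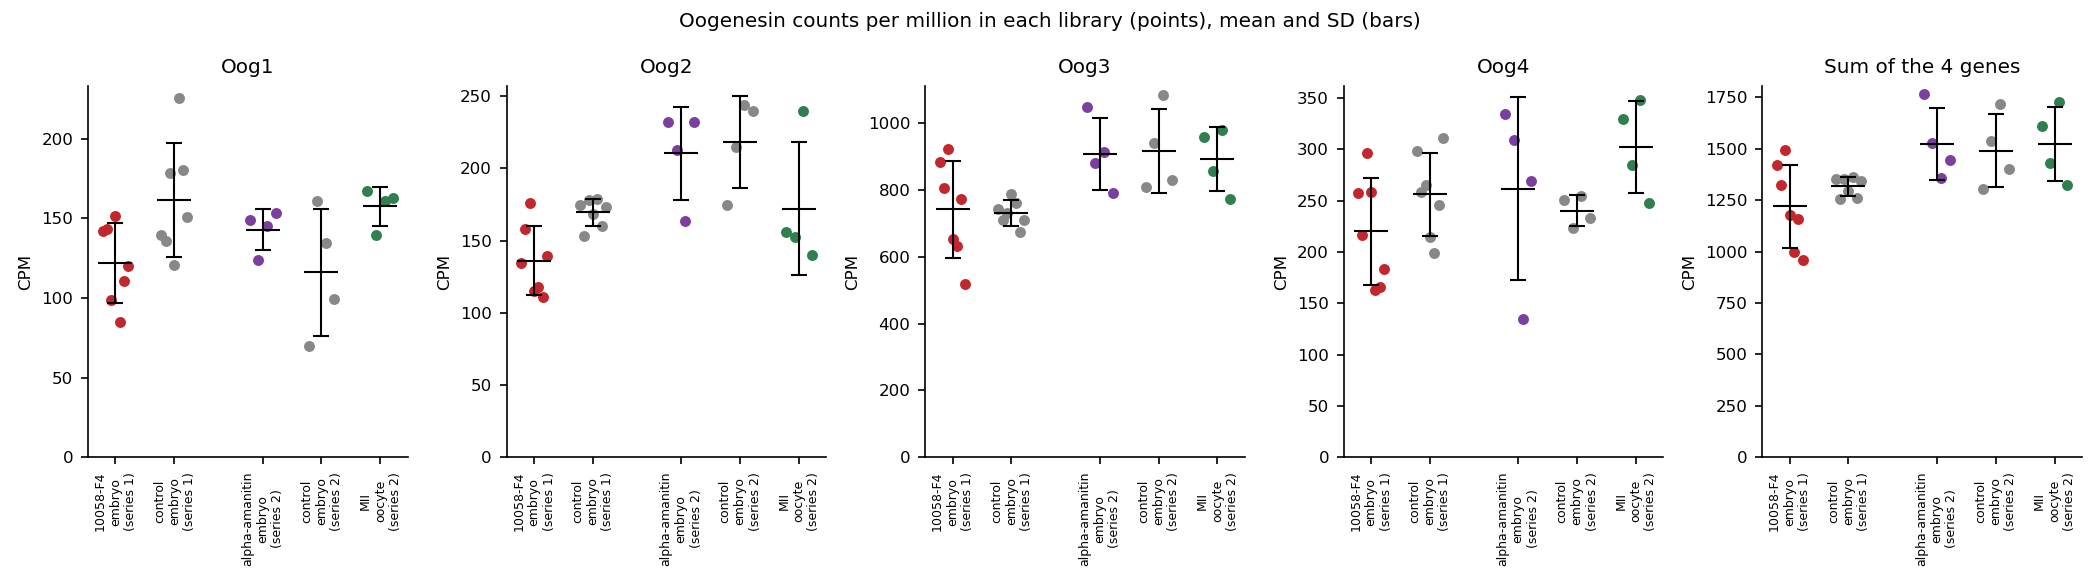
CPM of Oog1, Oog2, Oog3, Oog4 and their sum (y axes, each starting at 0) in every library (points), with the mean and SD of each group (bars), for c-Myc-inhibited and control embryos of the first series (n = 7 each) and alpha-amanitin embryos, control embryos and MII oocytes of the second (n = 4 each). The groups of a series overlap for every gene, Oog1 and Oog2 sit lower in most inhibitor libraries, and 1 alpha-amanitin library has 134 CPM of Oog4.

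Per length of exon, Oog3 was the highest member in 26 of 26 libraries and Oog4 the next in 26 of 26. Oog3 had 397 ± 78.4 CPM per kb in c-Myc-inhibited embryos, 392 ± 20.3 in their controls, 487 ± 57.7 in alpha-amanitin embryos, 491 ± 67.1 in their controls and 478 ± 51.1 in MII oocytes. Oog4 had group means of 111 to 153 CPM per kb. Below them Oog1 and Oog2 did not keep an order: Oog1 was the lower in 18 of 26 libraries, in 8 of 8 embryo libraries of the second series but in 4 of 7 in each group of the first and 2 of 4 oocytes. Oog1 means were 47.4 to 65.9 CPM per kb and Oog2 means 54.8 to 88.0.

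By mean CPM in MII oocytes, Oog3 ranked 110 of 20574 genes with a count, Oog4 702, Oog2 1355 and Oog1 1509. Oog3 supplied most of the family's counts, 60.6% ± 4.45 in c-Myc-inhibited embryos, 55.5% ± 2.77 in their controls, 59.8% ± 5.42 in alpha-amanitin embryos, 61.4% ± 1.64 in their controls and 58.6% ± 1.41 in MII oocytes. Oog1, the best studied member, supplied 10.1% ± 2.20, 12.2% ± 2.55, 9.47% ± 1.39, 7.68% ± 2.11 and 10.4% ± 1.30 in the same groups.

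**Figure D3:**
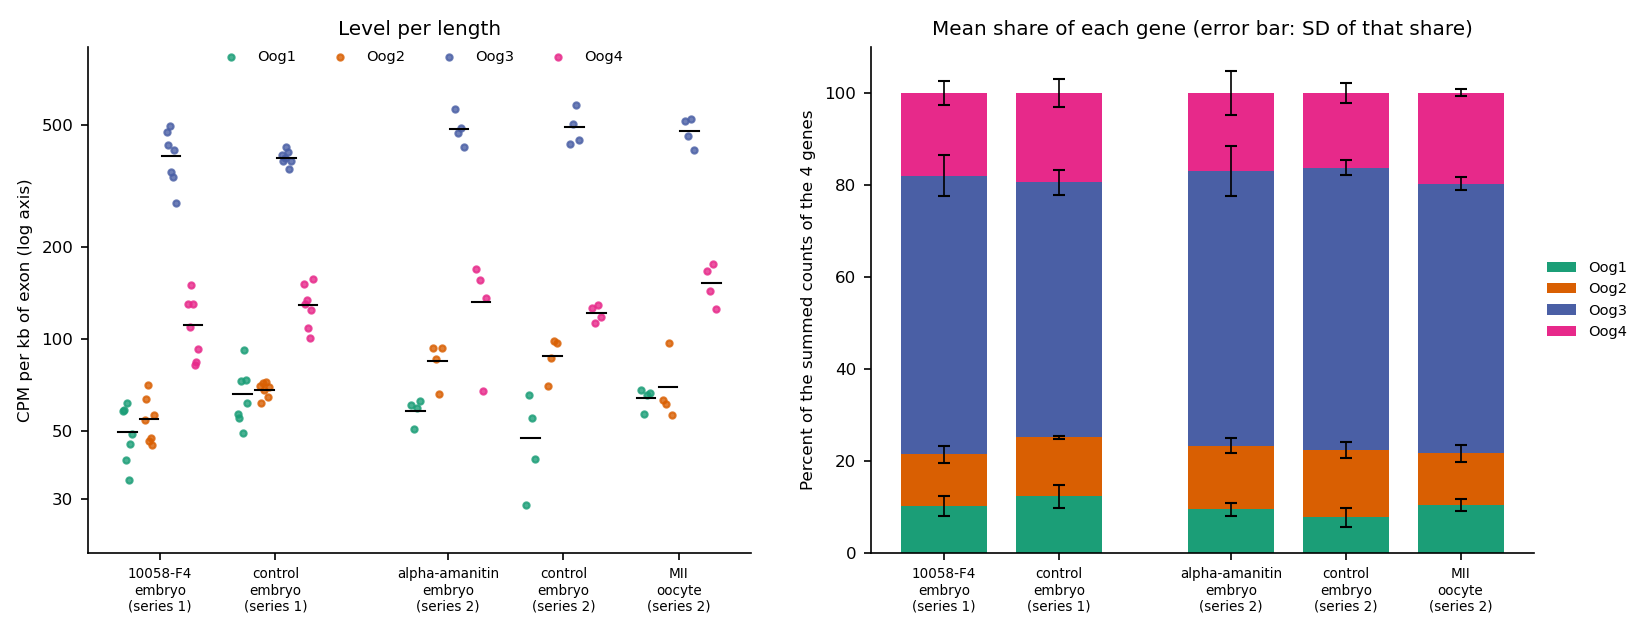
Left, CPM per kb of exon (log axis) of each gene in every library (points) with group means (lines). Right, mean percent of the summed counts of the 4 genes from each gene (stacked bars from 0), with the SD of each share at the top of its block. Oog3 lies above the other genes in all 26 libraries, and Oog1 and Oog2 overlap near the bottom.

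With the c-Myc inhibitor, 3 members averaged lower and 1 was level, and 0 of 4 passed edgeR's test after adjustment, where 2 of 4 members and 22% of all genes had an unadjusted p under 0.05. Of 13003 genes tested across the 14 libraries, 10.9% were called at a Benjamini-Hochberg adjusted p under 0.05 by edgeR's quasi-likelihood test, 6.82% higher and 4.08% lower. Oog2 and Oog1 came closest, and both calls turn on the method.

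Oog2 had a lowest, median and highest level of 111, 134 and 176 CPM in c-Myc-inhibited embryos, against 153, 173 and 179 CPM in controls. In 5 of 7 treated libraries Oog2 lay below the lowest control, and the ranges overlapped. The means were 136 ± 23.9 CPM in c-Myc-inhibited embryos and 169 ± 9.62 CPM in controls, a log2 ratio (edgeR's fitted fold change) of -0.30 (SE 0.10, edgeR adjusted p = 0.0505). As a ratio this is 0.810, with a 95% interval of 0.702 to 0.934. DESeq2 called it lower (adjusted p = 0.0143), as did limma voom (0.0321) and size factors by relative log expression (0.0370), while 1 fit of all 5 groups did not (0.264). Leaving out inhibitor replicate 2 or 3 or control replicate 2 also brought the adjusted p under the threshold (0.0307, 0.0108 and 0.0443).

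Oog1 had a lowest, median and highest level of 84.8, 120.2 and 151 CPM in c-Myc-inhibited embryos, against 121, 151 and 225 CPM in controls. Of the treated libraries 4 of 7 lay below the lowest control. The means were 122 ± 25.1 CPM in c-Myc-inhibited embryos and 162 ± 35.7 CPM in controls, a log2 ratio of -0.40 (SE 0.14, edgeR adjusted p = 0.0674). The ratio was 0.759, with a 95% interval of 0.623 to 0.925. With DESeq2 (adjusted p = 0.0242) and with no filter on low counts (0.0433) it was called lower, and with limma voom (0.0617), relative log expression (0.0551) and 1 fit of all 5 groups (0.239) it was not. Without inhibitor replicate 4 or control replicate 5 it was called as well (0.0401 and 0.0411).

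Because Oog1 shares most of its sequence with Gm2042 and Gm10436, the 3 were also summed. This sum was 669.8 ± 106 CPM in c-Myc-inhibited embryos and 838 ± 79.2 CPM in controls (SD, n = 7 each), a ratio of means of 0.799, and 7 of 7 treated libraries lay below the control median. No test was made on the sum. The sum does not depend on how reads were split between the 3 genes, but it would change if reads that fit several genes were dropped. Gm10436 made most of it, at 445 CPM in c-Myc-inhibited embryos and 553 CPM in controls, so it is not a reading of Oog1 alone. All members with the 6 near copies summed to 2859 ± 418 CPM in c-Myc-inhibited embryos and 3335 ± 167 CPM in controls (SD, n = 7 each). That ratio of means was 0.857, with 7 of 7 treated libraries below the control median and 0 above the highest control. This wider sum was not tested either.

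Oog4 had a lowest, median and highest level of 163, 217 and 296 CPM in c-Myc-inhibited embryos, against 199, 258 and 311 CPM in controls. The ranges overlapped over most of their width. Its log2 ratio was -0.21 (SE 0.13, edgeR adjusted p = 0.393), a ratio of 0.867 with a 95% interval of 0.720 to 1.04. Oog3 was level in the mean, at 741 ± 146 CPM in c-Myc-inhibited embryos and 730.4 ± 37.9 CPM in controls (log2 ratio 0.03, SE 0.10, edgeR adjusted p = 0.907). Its lowest, median and highest levels were 518, 772 and 923 CPM in treated embryos and 673, 729.7 and 789 CPM in controls, so the treated libraries reached past the controls on both sides. The 95% interval of the ratio was 0.890 to 1.18.

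Other measures moved with the treatment in these libraries. The 8 oocyte markers summed to 4239 to 5801 CPM in c-Myc-inhibited embryos and 2894 to 4549 CPM in controls. By edgeR 4 of the 8 were called higher and 0 lower, beside 6.82% and 4.08% of all genes. Without Gdf9 the other 7 summed to 2934 ± 349 CPM in c-Myc-inhibited embryos and 3103 ± 532 CPM in controls (SD, n = 7 each). The 8 markers of embryonic genome activation summed to 6.63 to 20.4 CPM in c-Myc-inhibited embryos and 23.5 to 37.7 CPM in controls. Of these, 1 of 5 tested, Usp17lc, was called lower (edgeR adjusted p = 0.0214), beside 4.08% of all genes. Cumulus markers summed to 6.35 to 21.7 CPM against 8.74 to 21.4 CPM, and sperm markers to 6.11 to 15.6 CPM against 4.72 to 10.4 CPM. Their part in the levels of the members was not tested.

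With alpha-amanitin every member overlapped with its controls, and 0 of 4 were called by edgeR or DESeq2, or had an unadjusted p under 0.05, as 7.51% of all genes did. In this comparison 0.0305% of 13133 genes were called by edgeR, 0.0228% higher and 0.00761% lower, and the smallest adjusted p of a member was 0.963. Oog3, the most abundant, had 1049, 879.6, 915 and 789.96 CPM in alpha-amanitin embryos, against 809.6, 941, 1083 and 831 CPM in controls. The groups overlapped almost completely. Its log2 ratio was 0.01 (SE 0.14, edgeR adjusted p = 0.999) and the 95% interval of the ratio 0.820 to 1.23.

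Oog1 had 149, 124, 145 and 154 CPM in alpha-amanitin embryos, against 70.0, 161, 135 and 99.1 CPM in controls. The controls spread more widely than the treated libraries and enclosed them. The log2 ratio was 0.32 (SE 0.23, edgeR adjusted p = 0.963), and the interval of the ratio, 0.888 to 1.75, leaves room for a rise that these libraries could not show. The log2 ratio was 0.12 without control replicate 1 and 0.50 without control replicate 2, and was called in neither. Oog2 had 232.4, 213, 164 and 232.2 CPM in alpha-amanitin embryos, against 174, 215, 244 and 239.7 CPM in controls (log2 ratio -0.03, SE 0.21, edgeR adjusted p = 0.998). Oog4 had 334, 309, 134 and 269 CPM in alpha-amanitin embryos, against 250.4, 223, 255 and 233 CPM in controls (log2 ratio 0.15, SE 0.22, edgeR adjusted p = 0.998). The third treated library, the shallowest of the series, was low and the other 3 lay above the highest control. Without that library the log2 ratio was 0.35, still not called. Oocyte markers summed to 3567 to 5179 CPM in alpha-amanitin embryos and 3467 to 4010 CPM in controls, and without Gdf9 to 3164 to 4552 CPM in alpha-amanitin embryos and 3115 to 3578 CPM in controls. Activation markers summed to 0.733 to 44.4 CPM in alpha-amanitin embryos and 25.2 to 102.5 CPM in controls, with 0 of 7 called by edgeR and 1 at an unadjusted p under 0.05. The part of either list in these levels was not tested.

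In control embryos of the second series the family sum stood at 0.978 of its level in MII oocytes by the ratio of means. Of the members 0 of 4 were called by edgeR or DESeq2, or had an unadjusted p under 0.05, as 14.1% of all genes did. By edgeR 2.89% of 13133 genes were called here, 1.11% higher and 1.78% lower. Oog3 had 809.6, 941, 1083 and 831 CPM in control embryos, against 958, 857, 979 and 774 CPM in MII oocytes. The groups overlapped over most of their range, with a log2 ratio of 0.03 (SE 0.14, edgeR adjusted p = 0.996) and a 95% interval of the ratio of 0.832 to 1.25.

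The other members leaned in different directions. Oog1 had 70.0, 161, 135 and 99.1 CPM in control embryos, against 167, 139.6, 161 and 163 CPM in MII oocytes. Of these embryos 3 of 4 lay below the lowest oocyte library. The log2 ratio was -0.45 (SE 0.23, edgeR adjusted p = 0.427). It was -0.27 without control replicate 1 and -0.65 without control replicate 2, and was called in neither. Oog4, at 240.4 ± 14.7 CPM in control embryos and 302 ± 45.0 CPM in MII oocytes, had -0.34 (SE 0.22, edgeR adjusted p = 0.640). Oog2, at 218 ± 31.9 CPM in control embryos and 172 ± 45.8 CPM in MII oocytes, had 0.33 (SE 0.21, edgeR adjusted p = 0.607). The oocyte mean of Oog2 includes 1 library at 240.1 CPM, with the other 3 at 140.02 to 156 CPM. Oocyte markers summed to 3467 to 4010 CPM in control embryos, against 5664 to 6750 CPM in MII oocytes. Without Gdf9 they summed to 3115 to 3578 CPM in control embryos, against 3755 to 4502 CPM in MII oocytes. The part of this in the members' levels was not tested.

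Alpha-amanitin embryos set against the same oocytes gave log2 ratios of -0.13 for Oog1, 0.30 for Oog2, 0.03 for Oog3 and -0.20 for Oog4, with SEs of 0.23, 0.21, 0.14 and 0.22. The edgeR adjusted p-values were 0.789 to 0.999, and 0 of 4 were called by edgeR or DESeq2, where edgeR called 1.71% of genes, 0.442% higher and 1.27% lower. None of the 4 had an unadjusted p under 0.05, as 10.6% of all genes did. This comparison shares its oocytes with the one before and its treated embryos with the alpha-amanitin comparison, so the 3 are not independent.

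Whether the inhibitors acted differently on a member was tested as a difference of effects, each within its own series, over the 22 embryo libraries and 15790 genes. By edgeR 1.04% of genes were called, 0.678% higher and 0.367% lower, and 0 of 4 members. At an unadjusted p under 0.05 there were 1 of 4 members and 17.3% of all genes. DESeq2 called 0 of 4 as well. Oog1 had the largest difference, -0.71 on the log2 scale (SE 0.28, 95% interval -1.28 to -0.14, edgeR adjusted p = 0.184), made of -0.40 with the c-Myc inhibitor and 0.32 with alpha-amanitin. Oog4 had -0.35 (SE 0.27, adjusted p = 0.588 by edgeR), Oog2 -0.26 (SE 0.20, 0.565) and Oog3 0.03 (SE 0.18, 0.978).

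**Figure D4:**
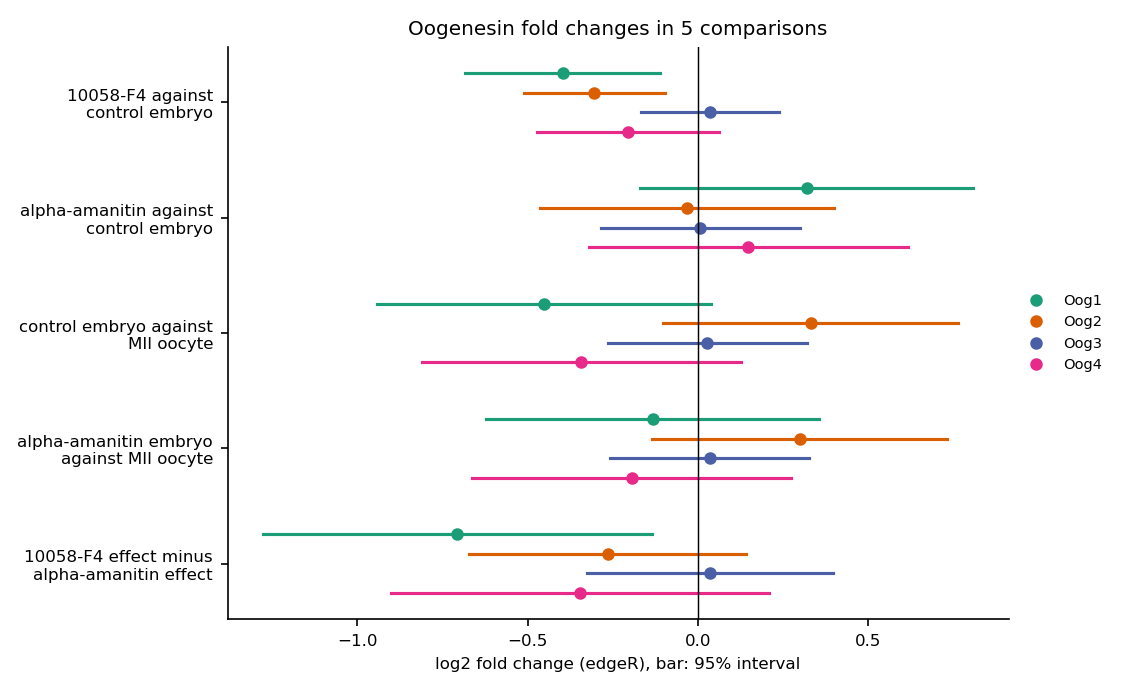
Log2 fold change of each gene (points, edgeR) with its 95% interval (bars) in the 4 comparisons and in the difference of the inhibitor effects, where 0 (line) is no difference. Oog3 lies between 0.01 and 0.03 in all 5, and the intervals of Oog1 and Oog2 with the c-Myc inhibitor end below 0 although the adjusted p-values were 0.0674 and 0.0505.

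Control embryos of the 2 series carry the same labels and were not tested against each other, since the series were numbered separately. First-series controls had 673 to 789 CPM of Oog3 and second-series controls 809.6 to 1083 CPM, ranges that did not overlap, which held for 6.88% of the 7483 genes averaging 10 CPM or more. Oog1 leaned the other way, at 162 ± 35.7 CPM (n = 7) in the first and 116 ± 39.8 CPM (n = 4) in the other.

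The PRAME-family relatives give the family's wider setting. The list holds 43 genes, of which 16 passed the filter in the first series. With the c-Myc inhibitor, edgeR called 2 of 16 lower and 0 higher, beside 4.08% and 6.82% of all genes. At an unadjusted p under 0.05 there were 5 of 16, beside 22% of all genes. The median log2 ratio of the relatives was -0.23, beside 0.00 for all genes tested. Gm10436, named Pramel51 in RefSeq, was at 445 ± 65.0 CPM in c-Myc-inhibited embryos and 553 ± 48.1 CPM in controls (log2 ratio -0.30, SE 0.09, edgeR adjusted p = 0.0256). Gm3259, or Pramel47, was at 35.4 ± 6.69 CPM in c-Myc-inhibited embryos and 51.1 ± 11.1 CPM in controls (-0.52, SE 0.16, edgeR adjusted p = 0.0331). Gm13084, or Pramel26, whose upstream region holds the same 5 runs as the members, was at 714 ± 96.2 CPM in c-Myc-inhibited embryos and 841 ± 65.7 CPM in controls and was not called (-0.23, SE 0.08, edgeR adjusted p = 0.0826). Gm2042, the nearest copy of Oog1 but not on the list, was at 103 ± 23.8 CPM against 123 ± 19.8 CPM and was not called either (adjusted p = 0.297 by edgeR).

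A further 6 genes that RefSeq names as PRAME relatives were outside that list and were added after the values were seen. Of the 4 that were tested, 2 were called lower with the c-Myc inhibitor, beside 4.08% of all genes. At an unadjusted p under 0.05 there were 3 of 4, beside 22%. C87414, or Pramel34, was at 351 ± 25.1 CPM in c-Myc-inhibited embryos and 476 ± 49.6 CPM in controls (log2 ratio -0.42, edgeR adjusted p = 0.000453). C87977, or Pramel29, was at 372 ± 77.5 CPM in c-Myc-inhibited embryos and 492 ± 43.6 CPM in controls (-0.39, edgeR adjusted p = 0.0196). C87977 shares 17.05% of the 50-base stretches of Oog1, so these counts are not independent readings.

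In the second series 12 relatives of 43 passed the filter, and 0 of 12 were called in any of its comparisons by edgeR. At an unadjusted p under 0.05 there was 1 with alpha-amanitin, 2 in control embryos against MII oocytes and 1 in alpha-amanitin embryos against MII oocytes, of 12 each, beside 7.51%, 14.1% and 10.6% of all genes. Their median log2 ratio was 0.01 with alpha-amanitin, 0.06 in control embryos against MII oocytes and -0.35 in alpha-amanitin embryos against MII oocytes, beside -0.01, -0.03 and -0.04 over all genes. The most abundant, Gm13084, stood at 919.2 ± 85.8 CPM in alpha-amanitin embryos, 918.9 ± 25.7 CPM in their controls and 826 ± 94.8 CPM in MII oocytes. Gm13023, or Pramel25, stood at 808 ± 135 CPM in alpha-amanitin embryos, 738 ± 90.9 CPM in their controls and 749 ± 55.8 CPM in MII oocytes. In the difference of the inhibitor effects 0 of 22 relatives were called by edgeR and 9 had an unadjusted p under 0.05, as 17.3% of all genes did. Their median was -0.30 beside -0.03 for all genes.

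Of 51 maternal and oocyte genes tested, 14 were lower and 3 higher in control embryos than in MII oocytes. Over all genes these shares were 1.78% and 1.11%. In alpha-amanitin embryos 11 were lower and 0 higher than in MII oocytes, beside 1.27% and 0.442% of all genes. The 17 genes called in control embryos had log2 ratios of 0.54 to 2.93 in size, and the median of the list was -0.13, beside -0.03 over all genes. Gdf9, an oocyte growth factor, was at 322 ± 89.7 CPM in control embryos and 2070.2 ± 158 CPM in MII oocytes (log2 ratio -2.69, SE 0.19, edgeR adjusted p = 6.49e-08). Plat, tissue plasminogen activator, was at 192 ± 54.4 CPM in control embryos and 1185 ± 215 CPM in MII oocytes (-2.63, SE 0.20, edgeR adjusted p = 1.67e-07). The lower 95% bounds of the members in this comparison were -0.94 for Oog1, -0.81 for Oog4, -0.27 for Oog3 and -0.10 for Oog2. Zbed3, of the maternal subcortical complex, was higher (0.65, edgeR adjusted p = 0.00747), as was Rfpl4 (0.63, adjusted p = 0.0165 by edgeR).

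With the c-Myc inhibitor, 12 of 51 maternal genes were higher and 3 lower, beside 6.82% and 4.08% of all genes. The median of the list was 0.06. The higher ones included Gdf9, at 1975 ± 309.8 CPM in c-Myc-inhibited embryos and 419 ± 115 CPM in controls, and Astl, the cortical granule protease ovastacin, at 106 ± 17.6 CPM against 35.7 ± 7.44 CPM. Dazl, an RNA-binding protein of germ cells, and Fbxw15, an F-box protein, were lower (log2 ratios of -0.32 and -0.35, edgeR adjusted p = 0.0227 and 0.0270), close in size to Oog1 and Oog2. With alpha-amanitin 1 of 51 was called, Nlrp14, which was higher (1.28, edgeR adjusted p = 0.0365), beside 0.0228% of all genes. In the difference of the inhibitor effects 6 of 51 were higher and 0 lower, beside 0.678% and 0.367% of all genes. H1foo, the oocyte's linker histone, was at 1.77 and Gdf9 at 1.60 on the log2 scale.

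**Figure D5:**
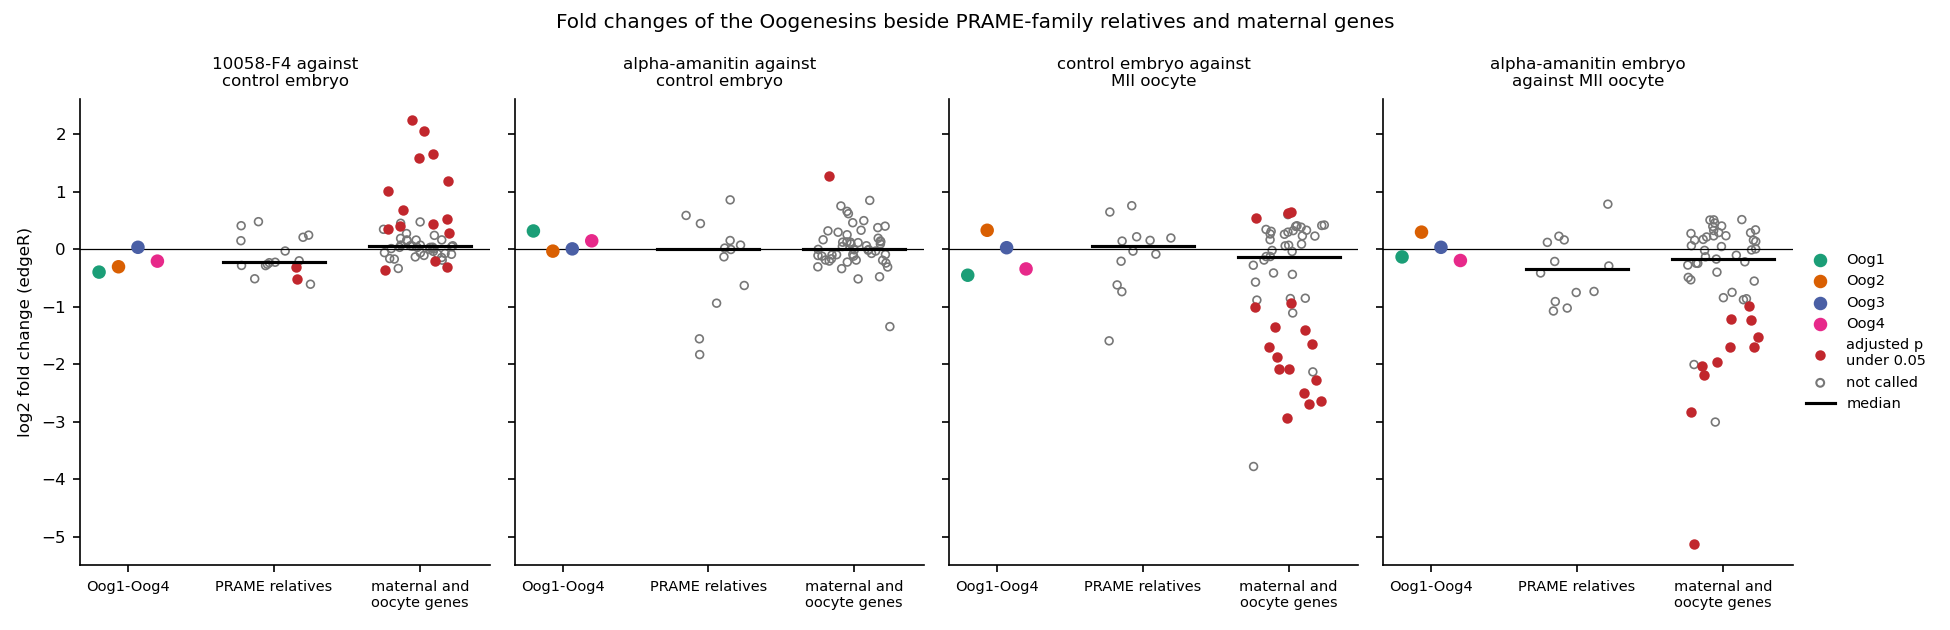
Log2 fold change (y axis, edgeR) of the 4 Oogenesins (coloured points), of the PRAME-family relatives tested and of the 51 maternal and oocyte genes (red, adjusted p under 0.05; open, not called; line, median) in 4 comparisons. The Oogenesins lie between -0.45 and 0.33 throughout, while called maternal genes reach -2.93 in control embryos and -5.13 in alpha-amanitin embryos against MII oocytes.

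Genes of oocyte transcription and of the Cullin-2 ligase were counted beside the shares over all genes. With the c-Myc inhibitor, 1 of 9 oocyte transcription factors and regulators was called higher and 1 lower, beside 6.82% and 4.08% of all genes. At an unadjusted p under 0.05 there were 4 of 9, beside 22%. Of 9 oocyte transcription factors and regulators tested, Taf4b, a subunit of the general factor TFIID needed in mouse oocytes, was lower with the c-Myc inhibitor (log2 ratio -0.58, edgeR adjusted p = 0.0103) and Ybx2, an RNA-binding protein that stabilises maternal messages, higher (0.40, adjusted p = 0.0176 by edgeR). In the other comparisons edgeR called 0 of 9, with 0 or 1 at an unadjusted p under 0.05 in each. The Cullin-2 list had 5 genes tested in the first series and 6 in the other. Uhrf1, a DNA methylation factor known in mouse as a target of Pramel7, was higher with the c-Myc inhibitor (0.54, edgeR adjusted p = 4.18e-06). It was the only 1 of 5 called there, beside 6.82% of all genes called higher. Eloc, the adaptor elongin C, was lower in control embryos than in MII oocytes (-1.46, edgeR adjusted p = 0.0165). It was the only 1 of 6 called there, beside 1.78% of all genes called lower.

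Likeness to the family sum was ranked among genes with a symbol, leaving out the members and all Gm-number and Rik symbols. The 5 genes of this ranking that followed the sum most closely over the 26 libraries were Pkd2l2, a polycystin-like channel (r = 0.754), Dusp7, a phosphatase of MAP kinases (0.745), Swt1 (0.719), Palb2, a partner of BRCA2 (0.714), and Nlrp4g (0.700). Gm13084, left out of the ranking by its symbol, had r of 0.707. These are Pearson correlations of log2(CPM + 1) after each series' mean was subtracted. The ranking held the 7284 genes that averaged 10 CPM or more and were not left out by symbol. Differences between the groups of a series were left in. The values also share the libraries, their depth and their amplification, so they describe likeness only. Taken singly and among the same ranked genes, Oog1 was most like Hdac2 (0.802), Oog2 like Bmp5 (0.757), Oog3 like Wtap (0.607) and Oog4 like March5 (0.868). In alpha-amanitin embryos the lowest library had 138 CPM of March5 (median 304) and the lowest for Oog4 had 134 CPM (median 289). How far their r rests on such a library was not tested.

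The members themselves were only loosely alike. Among the 6 pairs of Oogenesins r was 0.142 to 0.391, with Oog1 and Oog3 lowest and Oog2 and Oog4 highest. With the sum, r was 0.859 for Oog3, 0.646 for Oog4, 0.609 for Oog2 and 0.427 for Oog1, and the sum contains each of them. The neighbours Oog2 and Oog3, 28.1 kb apart, had r of 0.351.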

How the data were processed

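The table the authors deposited holds whole-number counts of 26 libraries. The tools named in the submitters' processing notes are cutadapt 1.7.1 and STAR 2.5.0a, and the build GRCm38. Counting program, annotation and strand setting are not stated in the sources used here. Symbols, exon lengths and transcripts came from GENCODE vM21, which named 55141 of 55401 IDs.

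Counts were tested in R 4.3.3 with edgeR 4.0.16 (quasi-likelihood F test, TMM scaling, filterByExpr with a minimum count of 10 and total of 15, Benjamini-Hochberg over all genes, threshold 0.05). The first series (14 libraries) and the second (12 libraries) were fitted separately, and the difference of effects over 22 libraries. SE is the fold change divided by the root of F. The fits were tested on simulated data. Alternatives were DESeq2 1.42.0, limma 3.58.1 voom, other scaling, no filter, a replicate block, other sets of libraries and each library left out. No 2 libraries of the same group agreed within sampling noise (chi-square per gene at least 32.77). Intervals on counts cover counting error only.

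The members, gene lists and rule for named genes were chosen with earlier results of these data known. The rule named the members throughout, called relatives by smallest p, up to 4 in each direction, or else the 2 most abundant, at most 2 called maternal genes in each direction, all called transcription factors and Cullin-2 genes, and the genes most like the family. Gm2042, Gm13084 with the c-Myc inhibitor, C87414, C87977 and Usp17lc were named after their values were seen. Identity and shared runs were computed with Biopython 1.88. A list of signalling genes was tested and is not reported here.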

Additional observations from a re-analysis of the deposited data

Results flagged for a closer look

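Of 45 sets of values (the 4 members, their sum and their shares in each of 5 groups), 3 held a library set apart from the others by Dixon's test, where chance gives about 1 in 20. Oog2 had 240.1 CPM in MII oocyte replicate 3, where the next oocyte library had 156.2 CPM. Oog4 made up 9.883% of the family's counts in alpha-amanitin replicate 3, the shallowest library, where the next library had 18.61%. Oog2 made up 12.16% of the family's counts in control replicate 2 of the first series, where the next had 12.74%, a small gap in a group with an SD of 0.337 percentage points.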

How the results depend on the processing

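Over 412 member values under other settings, 367 kept their direction and side of the threshold, 33 turned round and 12 passed the threshold. Outside the c-Myc inhibitor comparison 0 of 332 were called (lowest adjusted p 0.101). Of the CPM levels and shares in all groups, 0 of 206 moved by 1 SD or more. Leaving out 1 library cannot move a group mean that far, so for those settings this outcome was fixed in advance. With the c-Myc inhibitor, Oog1 passed with DESeq2 (-0.42, adjusted p = 0.0242) and with no filter (-0.40, 0.0433). Oog2 passed with DESeq2 (-0.32, adjusted p = 0.0143), limma voom (-0.32, 0.0321) and relative log expression scaling (-0.32, 0.0370). The cause of these shifts was not tested.

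Same-numbered libraries did not deviate together from their group means (18 correlations of -0.0425 to 0.0739, 0 above 0.1). This does not settle whether they were prepared together, which the labels do not say. With the numbers as a replicate block, in which a library whose number has no partner adds nothing, Oog1 was at -0.27 (adjusted p = 0.195), Oog2 at -0.37 (0.0395), Oog4 at -0.36 (0.0401) and Oog3 at -0.038, and 291 genes were called lower with the c-Myc inhibitor and 0 higher and 0 lower with alpha-amanitin. Small values turned round: with alpha-amanitin, Oog2 was at 0.035 by voom and Oog3 at -0.0061 with no filter and -0.012 in 1 fit of all 5 groups. In the difference of effects Oog3 was at -0.0049 by voom.

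Counts of called genes moved more. With the c-Myc inhibitor, DESeq2 called 859 lower, and 1 fit of all 5 groups 266 higher and 115 lower. With alpha-amanitin, DESeq2 called 91 higher and 32 lower, voom 7 lower, no filter 74 and 15, 1 fit 63 and 40, and the 8 libraries alone 0 and 0. For control embryos against MII oocytes, DESeq2 called 285 higher and 484 lower, voom 280 and 660, 1 fit 572 and 837, and the 8 libraries alone 293 and 471. For alpha-amanitin embryos against MII oocytes, DESeq2 called 219 higher and 311 lower, voom 141 and 401, no filter 186 and 286, and 1 fit 329 and 530. For the difference of effects, DESeq2 called 413 and 629 and no filter 234 and 209. In all these settings 0 members were called outside the c-Myc inhibitor comparison.

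Leaving out 1 library at a time gave, with the c-Myc inhibitor, -0.46 to -0.30 for Oog1 (called in 2 of 14), -0.38 to -0.26 for Oog2 (3 of 14) and -0.027 to 0.11 for Oog3. Oog3 ranged over -0.090 to 0.098 with alpha-amanitin, -0.077 to 0.089 in control embryos and -0.069 to 0.088 in alpha-amanitin embryos against MII oocytes, and -0.053 to 0.12 in the difference of effects. With alpha-amanitin Oog2 ranged over -0.14 to 0.0605 and Oog4 over -0.0094 to 0.35, and Oog4 over -0.36 to 0.015 in alpha-amanitin embryos against MII oocytes. Called genes, higher and then lower, ranged over 762 to 901 and 391 to 571 with the c-Myc inhibitor, 0 to 4 and 0 to 2 with alpha-amanitin, 63 to 291 and 146 to 434 in control embryos against MII oocytes, 20 to 82 and 102 to 248 in alpha-amanitin embryos against MII oocytes, and 67 to 167 and 25 to 113 in the difference of effects. The counting error of a member was at most 3.7% in a library.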
